A study of Mus musculus with 12 samples.

Results

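PML nuclear bodies are round protein assemblies in the nucleus, and the genes described here encode their scaffold and a set of proteins that gather in them or are related to those that do. The members were Pml, Sp100, Sp110, Sp140 and Daxx, and all 5 genes were found on the array by the gene name of its non-control probes. They were measured by 10 of the 55681 probes: 3 for Sp110, 3 for Sp140, 2 for Pml and 1 each for Sp100 and Daxx. All 10 probes passed the filter on dim probes and were well above background on all 12 arrays, while 33157 probes of the whole array passed that filter.

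Total RNA of the mouse macrophage line RAW264.7 was measured on 12 one-colour arrays, 3 in each of 4 groups. The groups were cells with an siRNA against the long noncoding RNA lincRNA-Tnfaip3 and LPS, cells with a scrambled control siRNA and LPS, cells with the lincRNA-Tnfaip3 siRNA alone, and cells with the control siRNA alone. Every group had an siRNA for 24 h, and the last 4 h that followed were spent in medium that held E. coli LPS (1 µg/ml) or none. Whether replicates were separate cultures is not in the labels, so the spread behind the p-values is that of these samples and may be technical. The labels name a single siRNA treatment for lincRNA-Tnfaip3, and 0 probes carried the name of that RNA, so its loss was not measured here.

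PML, also known as TRIM19, builds the shell of the nuclear body, and its attachment of the small modifier SUMO lets other proteins dock there. SP100 is a constitutive partner that is also modified by SUMO, and DAXX is a transcriptional repressor and histone chaperone that binds SUMO-modified PML. SP110 and SP140 are relatives of SP100 with chromatin-reading domains, and in mice both lie in a chromosome 1 region that governs resistance to intracellular bacteria. LPS, a cell wall component of Gram-negative bacteria, is sensed by macrophages through TLR4, which among other outputs drives interferon-beta, and type I interferon in turn raises many antiviral genes. PML and SP100 are known interferon-inducible proteins.

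The 3 probes of Sp110 did not give the same result, so the first 30 bases of each are shown 5′ to 3′, with a stretch of repeated GT in capitals. By the positions in the file headers (build mm9, minus strand) they lie on chromosome 1 at chr1:87473677-87473736, chr1:87473511-87473570 and chr1:87492576-87492635.
Sp110 A_55_P2066792: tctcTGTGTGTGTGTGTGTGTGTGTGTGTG
Sp110 A_55_P2152566: atggcaaagtgcatgaatactagacagtaa
Sp110 A_55_P2037235: atataaatgaaggtgaacatcgcctatgcc
The repeat in A_55_P2066792 ran for 37 of its 60 bases, and 80 probes of other genes shared at least 16 bases with it, while the other 2 Sp110 probes shared 16 bases with 0. Of all 55681 probes, 0.136% held a GT or AC run of 20 bases or more. This repeat probe was also the brightest of the 3, with a processed signal of 69073 to 103455 over the 12 arrays, so the rule of taking the brightest probe of each gene chose it. The results below therefore give all 3 probes, and the reason for their difference was not tested.

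The other probes were placed by the same headers as follows. Pml was read on the minus strand of chromosome 9 at chr9:58066349-58066408 (A_55_P2095727) and chr9:58065082-58065141 (A_66_P128997). Sp100 was read on the plus strand of chromosome 1 at chr1:87605957-87606016. Sp140 was read on the same strand at chr1:87507329-87507388 (A_55_P2137121), chr1:87541244-87541303 (A_55_P2086810) and chr1:87541553-87541612 (A_55_P2086811). Daxx was read on the plus strand of chromosome 17 at chr17:34052404-34052463. In the reference gene table Sp110 and Sp140 overlap on opposite strands with Sp100 next to them, and a probe reads only the strand it was designed against. Exon and UTR positions of the probes were not analysed here.

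The stretches of promoter sequence below are shown because these genes are known interferon targets and IRF factors bind GAAA-type repeats. They come from RefSeq windows of 300 bases around the start of each gene (GRCm38.p6), and all 5 genes matched, with 9 windows in total. The letters shown are those of the gene's own strand. The searched motif AANNGAAA, the core of an IRF site, reads on the opposite strand, so the capitals are its reverse complement.
Pml chr9:58249841-58249870, minus strand: ctccctagtcTTTCTCTTaactttggaagg
Sp100 chr1:85649931-85649960, plus strand: agagaattacTTTCGTTTttcttttcccca
Sp110 chr1:85598782-85598811, minus strand: ctgagatcacTTTCATTTttcttttcttga
On both strands, 23.9% of the 32817 windows of all genes held this motif, so a match is common. In Sp100 and Sp110 a second, overlapping match began 7 bases downstream of the first. The windows of Sp140 and Daxx and the second window of Sp110 held no match. The longer interferon-stimulated response element (in 3.43% of windows) and TTCNNNGAA (gamma-activated site, in 8.29% of windows) had no match in any window of the 5 genes. A match describes letters only, and no match says only that these letters are not in this window.

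The values below are log2 of the processed signal relative to the 75th percentile of the same array, so they compare arrays for 1 probe and not probes with each other. The arrays held probes well above background in numbers of 32702 to 36391, except 27198 and 29452 on control-siRNA arrays 1 and 2. Those 2 arrays made up slide 1, slide 3 was replicates 2 and 3 of the lincRNA siRNA with LPS, and slide 2 held the other 8. With slide as a block, or on slide 2 alone, the control siRNA is therefore compared through its array 3 only. The lincRNA siRNA with LPS is then compared through its array 1 only. Array 1 of the lincRNA siRNA without LPS also stood apart from its replicates in interferon-stimulated genes, as given below. Of 9 macrophage markers, 8 were detected on all 12 arrays and Mertk on 1. The summed relative signal of all 9 was 539 to 609 with the lincRNA siRNA and LPS, against 469 to 534 with that siRNA alone. It was 441 to 508 with the control siRNA and LPS, against 354 to 439 with the control siRNA alone. Epcam, Cdh1, Ms4a1 and Pdgfra, markers of epithelial cells, B cells and fibroblasts, were detected on 0 arrays. The summed relative signal of 5 T cell markers was 12.7 to 16.7 with the lincRNA siRNA and LPS, against 10.4 to 14.2 with that siRNA alone. It was 11.6 to 16.6 with the control siRNA and LPS, against 6.51 to 11.01 with the control siRNA alone, and 1 of the 4 tested T cell markers rose with LPS in control-siRNA cells. The sum of 5 fibroblast markers was 1.29 to 1.44 against 0.564 to 1.29 in the lincRNA-siRNA groups with and without LPS, and 0.757 to 2.17 against 0.440 to 0.616 in the control-siRNA groups. That of 3 endothelial markers was 11.6 to 14.9 against 9.01 to 14.5, and 11.04 to 14.6 against 8.67 to 10.3, in the same order. That of 4 B cell markers was 0.186 to 0.353 against 0.154 to 0.231, and 0.230 to 0.285 against 0.137 to 0.202. No macrophage, fibroblast, endothelial or B cell marker tested passed the threshold. The part of these shifts in the members' LPS differences was not tested.

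**Figure D1:**
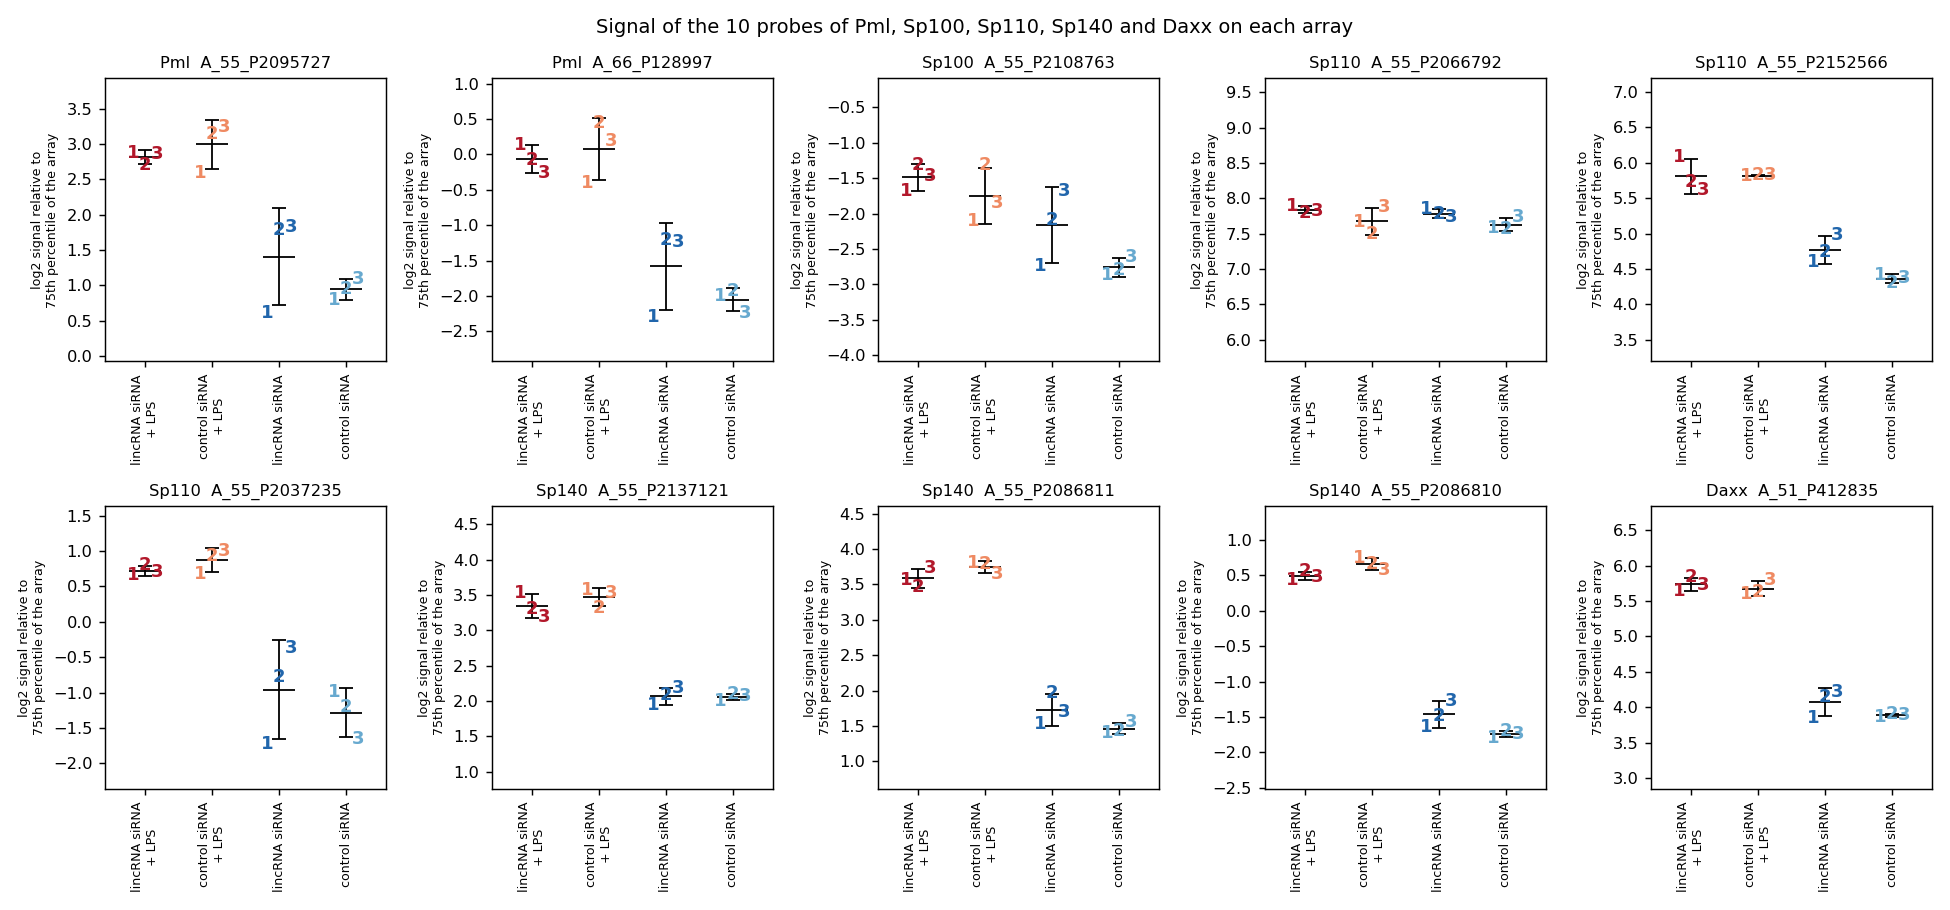
Signal of each of the 10 probes on each array, as log2 relative to the 75th percentile of the array, with the array's replicate number as the plotting symbol and bars for the mean and SD of 3 arrays. In 9 probes the groups with LPS lie to the left and higher, and the Sp110 repeat probe A_55_P2066792 stays between 7.50 and 7.89 on all 12 arrays.

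By the brightest probe of each gene, LPS raised Pml, Sp140 and Daxx in control-siRNA cells, and Sp140 and Daxx in lincRNA-siRNA cells. These rises were between 2.42-fold and 4.14-fold. The other Sp140 probes rose between 3.62-fold and 5.31-fold over both siRNAs, and the Sp110 probes without the repeat between 2.05-fold and 4.45-fold. Pml probe A_66_P128997 rose 2.85-fold in lincRNA-siRNA cells and 4.38-fold in control-siRNA cells. All of these had a limma adjusted p under 0.05 by probe. Counted by 1 probe per gene in limma with Benjamini-Hochberg adjustment over 23913 features, 2 of the 5 genes passed the threshold of 0.05 in lincRNA-siRNA cells, where 1.84% of all features did and 1.5% did so upwards. In control-siRNA cells 3 of the 5 genes passed, where 5.14% of all features did and 3.25% did so upwards. Counted by probe over 33157 probes, 7 of 10 rose in lincRNA-siRNA cells, where 1.32% of all probes did, and 8 of 10 rose in control-siRNA cells, where 2.9% did. Every LPS array lay above every array without LPS in 7.98% of all features in lincRNA-siRNA cells and in 14.9% in control-siRNA cells, the background for the same statement about a member. Probes of 1 gene share their target and are not separate evidence. Fewer cells of a type and less RNA per cell cannot be told apart in such bulk samples.

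Pml, the scaffold, read 2.87, 2.70 and 2.86 on the log2 scale with the lincRNA siRNA and LPS, against 0.61, 1.78 and 1.82 with that siRNA alone. It read 2.59, 3.14 and 3.24 with the control siRNA and LPS, against 0.79, 0.95 and 1.09 with the control siRNA alone. In both pairs every LPS array was higher than every array without LPS, and array 1 of the lincRNA siRNA alone was the lowest of all 12. The difference was 1.41 ± 0.30 (SE; limma adjusted p = 0.0504) in lincRNA-siRNA cells, which missed the threshold. It was 2.05 ± 0.30 (adjusted p = 0.00393), or 4.14-fold, in control-siRNA cells. Without array 1 of the lincRNA siRNA the first was 1.01 with an adjusted p of 0.0411, and without array 3 it was 1.61 with an adjusted p of 0.0406. Over 23 alternatives, the other probe among them, the first was 1.01 to 1.61 and passed in only 6. The second probe, A_66_P128997, read 0.14, -0.08 and -0.26 with the lincRNA siRNA and LPS, against -2.30, -1.21 and -1.24 with that siRNA alone. It read -0.40, 0.45 and 0.19 with the control siRNA and LPS, against -1.99, -1.93 and -2.23 with the control siRNA alone. Over 33157 probes it passed in both, at 1.51 (limma adjusted p = 0.0407) and 2.13 (adjusted p = 0.00355). With slide as a block its differences were 1.72 and 2.31, and neither passed. That fit leaves control-siRNA array 3 as the baseline of the control pair. It leaves array 1 of the lincRNA siRNA with LPS as the LPS side of the other pair. The brighter probe's difference was then 1.46 in lincRNA-siRNA cells and 1.899 in control-siRNA cells, and neither passed.

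Sp100, the constitutive partner, gave the smallest differences among the probes other than the repeat probe. It read -1.68, -1.31 and -1.47 with the lincRNA siRNA and LPS, against -2.74, -2.09 and -1.67 with that siRNA alone, and these ranges met at their edge. It read -2.10, -1.32 and -1.85 with the control siRNA and LPS, against -2.87, -2.81 and -2.61 with the control siRNA alone, with no overlap. The differences were 0.68 (limma adjusted p = 0.411) and 1.01 (adjusted p = 0.0651; 95% interval 0.40 to 1.61), and neither passed. The second passed when control-siRNA array 3 was left out (adjusted p = 0.0471), and when array 1 (0.0275) or array 3 (0.0470) of the lincRNA siRNA without LPS was. It was 0.54 with normexp background correction (limma adjusted p = 0.218) and 0.86 with slide as a block (adjusted p = 0.679). The first was 0.39 without array 1 of the lincRNA siRNA without LPS (adjusted p = 0.878).

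Sp110, which in mice is also called Ipr1, depended on the probe. With the repeat probe A_55_P2066792 it read 7.89, 7.80 and 7.82 with the lincRNA siRNA and LPS, against 7.85, 7.78 and 7.73 with that siRNA alone. It read 7.66, 7.50 and 7.88 with the control siRNA and LPS, against 7.58, 7.57 and 7.74 with the control siRNA alone. Arrays with and without LPS thus overlapped under each siRNA. Both LPS differences were 0.05 (limma adjusted p = 0.951 in lincRNA-siRNA cells and 0.812 in control-siRNA cells), and with quantile normalization the second was -0.12. The 80 probes of other genes that share its repeat had a median LPS difference of 0.05 in lincRNA-siRNA cells and -0.07 in control-siRNA cells, with 0 of 80 past the threshold in either.

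Both other Sp110 probes were higher with LPS in every array. A_55_P2152566 read 6.08, 5.73 and 5.61 with the lincRNA siRNA and LPS, against 4.59, 4.74 and 4.98 with that siRNA alone. It read 5.81, 5.83 and 5.82 with the control siRNA and LPS, against 4.42, 4.30 and 4.37 with the control siRNA alone. These differences were 1.04 ± 0.14 (limma adjusted p = 0.00425) and 1.46 ± 0.14 (adjusted p = 0.000325) over 33157 probes. A_55_P2037235 read 0.66, 0.80 and 0.70 with the lincRNA siRNA and LPS, against -1.73, -0.78 and -0.37 with that siRNA alone. It read 0.68, 0.93 and 1.00 with the control siRNA and LPS, against -0.99, -1.20 and -1.66 with the control siRNA alone. Its differences were 1.68 (limma adjusted p = 0.0242) and 2.16 (adjusted p = 0.00337). With A_55_P2152566 standing for Sp110, a choice made after the values were seen, 3 of the 5 genes passed in lincRNA-siRNA cells and 4 of the 5 in control-siRNA cells. With slide as a block, where each pair has 1 array on one side, A_55_P2152566 differed by 1.31 and 1.45. A_55_P2037235, at 1.63 and 2.53, did not pass there.

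Sp140, a bromodomain relative of SP100 found mainly in white blood cells, rose on all 3 probes. The brightest, A_55_P2137121, read 3.53, 3.31 and 3.19 with the lincRNA siRNA and LPS, against 1.95, 2.08 and 2.18 with that siRNA alone. It read 3.56, 3.32 and 3.52 with the control siRNA and LPS, against 2.01, 2.10 and 2.07 with the control siRNA alone. The groups were far apart relative to their spread, at 1.27 ± 0.12 (limma adjusted p = 0.000419) and 1.41 ± 0.12 (adjusted p = 0.00014). A_55_P2086811 read 3.57, 3.46 and 3.73 with the lincRNA siRNA and LPS, against 1.52, 1.97 and 1.70 with that siRNA alone. It read 3.81, 3.79 and 3.65 with the control siRNA and LPS, against 1.40, 1.43 and 1.55 with the control siRNA alone. The neighbouring probe A_55_P2086810 gave 0.44, 0.56 and 0.47 against -1.64, -1.48 and -1.27 for the lincRNA siRNA with and without LPS. It gave 0.75, 0.67 and 0.58 against -1.79, -1.70 and -1.74 for the control siRNA with and without LPS. These 2 probes, which lie downstream of the first, gave LPS differences of 1.86 and 1.96 in lincRNA-siRNA cells and of 2.29 and 2.41 in control-siRNA cells. Whether the size of the change differs between the probes was not tested.

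Daxx, the repressor and histone chaperone, read 5.65, 5.83 and 5.73 with the lincRNA siRNA and LPS, against 3.85, 4.15 and 4.22 with that siRNA alone. It read 5.61, 5.62 and 5.79 with the control siRNA and LPS, against 3.86, 3.90 and 3.88 with the control siRNA alone. The lowest LPS array stood more than 1 log2 unit above the highest array without LPS. The differences were 1.67 ± 0.11 (limma adjusted p = 8.3e-05) and 1.79 ± 0.11 (adjusted p = 3.27e-05), or 3.46-fold in control-siRNA cells. With slide as a block the Daxx differences were 1.58 in lincRNA-siRNA cells and 1.79 in control-siRNA cells. Those of Sp140 probe A_55_P2137121 were 1.46 and 1.40. Slide 2 alone gave the same sizes, and neither gene passed there by 1 probe per gene. In both fits each LPS difference rests on 1 array on one side.

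**Figure D2:**
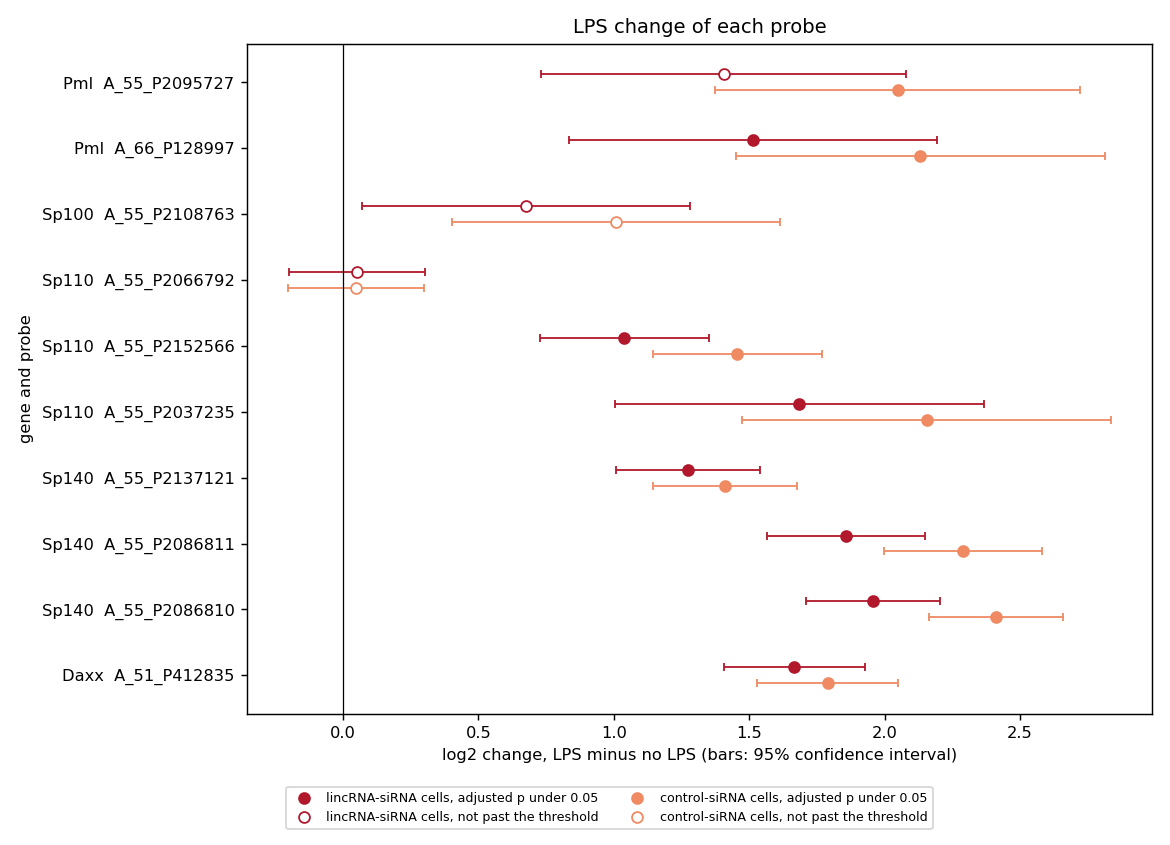
LPS difference of each probe (log2, LPS minus no LPS) in lincRNA-siRNA and control-siRNA cells, with 95% confidence intervals from limma over 33157 probes and filled points where the adjusted p is under 0.05. All 10 probes lie to the right of 0, the Sp110 repeat probe A_55_P2066792 at 0.05 with intervals that include 0, and Sp100 has open points in both groups.

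The lincRNA-Tnfaip3 siRNA left none of the 5 genes past the threshold, with LPS or without it. Among all 23913 features 0% passed in either comparison, while 4.63% with LPS and 18.5% without LPS had an unadjusted limma p under 0.05. Among the 5 genes, read by 1 probe each, 0 did in either. By probe, 0 of 10 did with LPS, where 4.73% of all probes did. Without LPS 2 of 10 did, where 18.1% of all probes did. With LPS the difference (lincRNA siRNA minus control siRNA) was -0.18 for Pml (95% interval -0.85 to 0.49), 0.26 for Sp100 (-0.34 to 0.87) and 0.16 for Sp110 by the repeat probe (-0.09 to 0.40). It was -0.13 for Sp140 (-0.39 to 0.14) and 0.06 for Daxx (-0.19 to 0.32). These intervals leave room for changes of more than 1.5-fold in Pml and Sp100, and for smaller ones in Sp140 and Daxx. Sp110 gave -0.15 (95% interval -0.83 to 0.53) by A_55_P2037235 and -0.01 (-0.32 to 0.30) by A_55_P2152566, in the other direction from the repeat probe. The 3 Sp140 probes were all lower with the lincRNA siRNA, by 0.13 to 0.17. On A_55_P2086810 the 3 lincRNA-siRNA arrays lay below the 3 control-siRNA arrays (limma adjusted p = 0.967), as in 4.29% of features.

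Without LPS all 10 probes averaged higher with the lincRNA siRNA than with the control siRNA. The median over all features was 0.07. By gene the differences were 0.46 for Pml (95% interval -0.21 to 1.13) and 0.60 for Sp100 (-0.01 to 1.20, limma adjusted p = 0.274). They were 0.16 for Sp110 by the repeat probe, 0.01 for Sp140 and 0.19 for Daxx. Sp110 probe A_55_P2037235 differed by 0.32 (95% interval -0.36 to 1.00). Sp110 probe A_55_P2152566 was higher in all 3 lincRNA-siRNA arrays, by 0.41 (95% interval 0.09 to 0.72, limma adjusted p = 0.225). Sp140 probe A_55_P2086810 was too, by 0.28 (0.03 to 0.53, limma adjusted p = 0.245), and 12.2% of all features showed such groups without overlap. Both intervals exclude 0 before adjustment. Arrays 2 and 3 of the lincRNA siRNA carried most of the Pml and Sp100 differences, and array 1 did not share them. Without array 1 they were 0.86 for Pml (adjusted p = 0.0940) and 0.88 for Sp100 (adjusted p = 0.127).

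The interaction compares the LPS difference of lincRNA-siRNA cells with that of control-siRNA cells. It was -0.64 for Pml (95% interval -1.59 to 0.31), -0.33 for Sp100, 0.00154 for Sp110 by the repeat probe, -0.14 for Sp140 and -0.12 for Daxx, with limma adjusted p-values of 0.891 to 0.998. Over all features 0% passed and 3.74% had an unadjusted p under 0.05. Of the 10 probes, 9 had a smaller LPS difference in lincRNA-siRNA cells, but the interval excluded 0 before adjustment on 2 of them, A_55_P2086810 (-0.45, limma adjusted p = 0.895) and A_55_P2086811 (-0.43, limma adjusted p = 0.895) of Sp140. An LPS effect that passed in control-siRNA cells and not in lincRNA-siRNA cells, as for Pml by its brighter probe, is therefore not shown to differ between the siRNAs. Leaving out array 1 of the lincRNA siRNA without LPS moved the Pml value to -1.04 (adjusted p = 0.622).

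**Figure D3:**
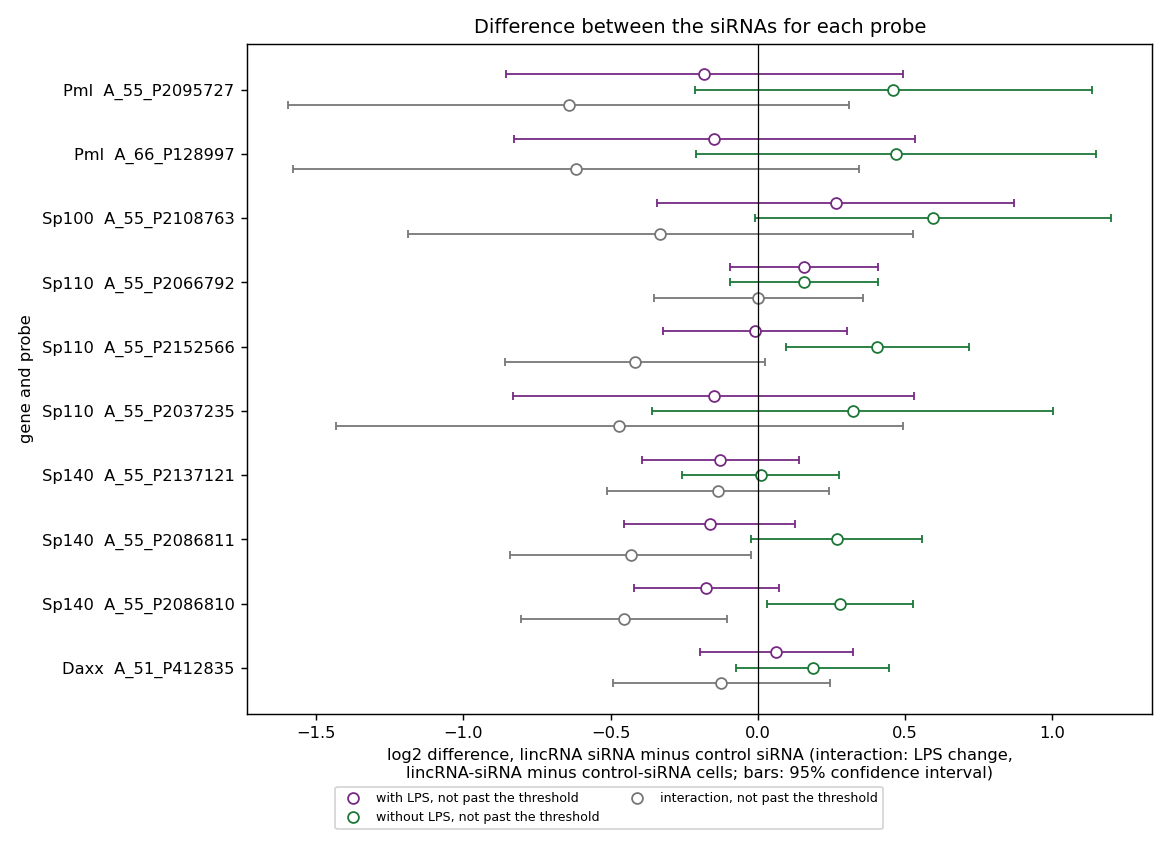
Difference between the siRNAs for each probe (log2, lincRNA siRNA minus control siRNA) with LPS and without it, and the interaction with LPS, with 95% confidence intervals from limma. No point passes the threshold, and the intervals are widest for both Pml probes, Sp100 and Sp110 probe A_55_P2037235.

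By mean level, Pml stood at 2.81 ± 0.10 in the lincRNA siRNA with LPS, 2.99 ± 0.35 in the control siRNA with LPS, 1.40 ± 0.69 in the lincRNA siRNA and 0.94 ± 0.15 in the control siRNA (log2, SD, n = 3 each), so the control siRNA with LPS ranked first. Daxx stood in falling order at 5.74 ± 0.09 in the lincRNA siRNA with LPS, 5.67 ± 0.10 in the control siRNA with LPS, 4.07 ± 0.19 in the lincRNA siRNA and 3.88 ± 0.02 in the control siRNA. In both genes the neighbours within an LPS state did not pass a test of their difference, and a gap larger than the spread lay between the LPS states. Sp100 followed the order of Daxx at -1.49 ± 0.19, -1.75 ± 0.40, -2.17 ± 0.54 and -2.76 ± 0.13, and the arrays of neighbouring groups overlapped.

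Other genes of the interferon route changed with LPS as well. These lists were chosen with earlier results of these data known, so their counts are a description. Of 14 interferon pathway genes, 6 rose and 0 fell in lincRNA-siRNA cells (median log2 difference 1.31), and 9 rose and 0 fell in control-siRNA cells (median 2.02). The medians over all features were -0.01 and 0.06. Usp18, which limits interferon receptor signalling, differed by 3.02 (limma adjusted p = 0.128) and 4.91 (adjusted p = 0.00688). Ifnb1, which encodes interferon-beta, rose by 4.03 (limma adjusted p = 0.00108) and 4.24 (adjusted p = 0.000476). Socs1, an inhibitor of JAK kinases, rose by 3.35 and 3.49. Of 25 interferon-stimulated effector genes, 16 rose in lincRNA-siRNA cells (median 2.83) and 24 in control-siRNA cells (median 4.32), with 0 lower in either. Mx1, an antiviral GTPase, was detected on 0 arrays of the control siRNA without LPS and was at least 58.0-fold higher with LPS there (limma adjusted p = 0.00281). In lincRNA-siRNA cells it rose by 5.91 (limma adjusted p = 0.0231). Gbp2, a GTPase that acts on intracellular pathogens, rose by 4.21 and 5.99, and Mx2, a relative of Mx1, by 4.66 and 5.81.

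Partners of the nuclear body gave no such counts. Of 29 genes for SUMO conjugation, SUMO proteases and nuclear body partners, 0 passed in lincRNA-siRNA cells (median -0.03) and 0 in control-siRNA cells (median -0.14). Of 14 genes of the DAXX and histone H3.3 chaperone axis, which includes the DAXX partner Atrx, 0 passed in either (medians -0.04 and -0.22). Among the genes on related TRIM and SP100-type proteins or neighbouring loci, 5 of 7 were on the array and 4 were tested. Of these 2 rose in lincRNA-siRNA cells and 4 in control-siRNA cells. Trim21, a cytosolic antibody receptor, rose by 2.67 and 3.15. Trim30a, a mouse TRIM protein of the interferon response, was detected on 0 arrays of the control siRNA without LPS and was at least 22.0-fold higher with LPS (limma adjusted p = 0.0350). In lincRNA-siRNA cells its difference was 2.66 (limma adjusted p = 0.454). Csprs, a gene of the chromosome 1 region, differed by 1.92 (limma adjusted p = 0.251) and 3.16 (adjusted p = 0.0182).

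The level of the interferon-stimulated effector genes also varied between replicates. The median of the 25 genes was 3.97, 3.79 and 3.48 with the lincRNA siRNA and LPS and 3.57, 4.16 and 4.06 with the control siRNA and LPS. It was -0.82, 2.02 and 2.19 with the lincRNA siRNA alone and -0.17, 0.68 and -0.38 with the control siRNA alone. Array 1 of the lincRNA siRNA was thus low in this median, in Pml, and in Sp100 and Sp110 probe A_55_P2037235, and arrays 2 and 3 were high. The median of the 29 partner and SUMO genes was 2.38, 2.48 and 2.43 on these 3 arrays. Their part in the differences between siRNAs without LPS was not tested.

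**Figure D4:**
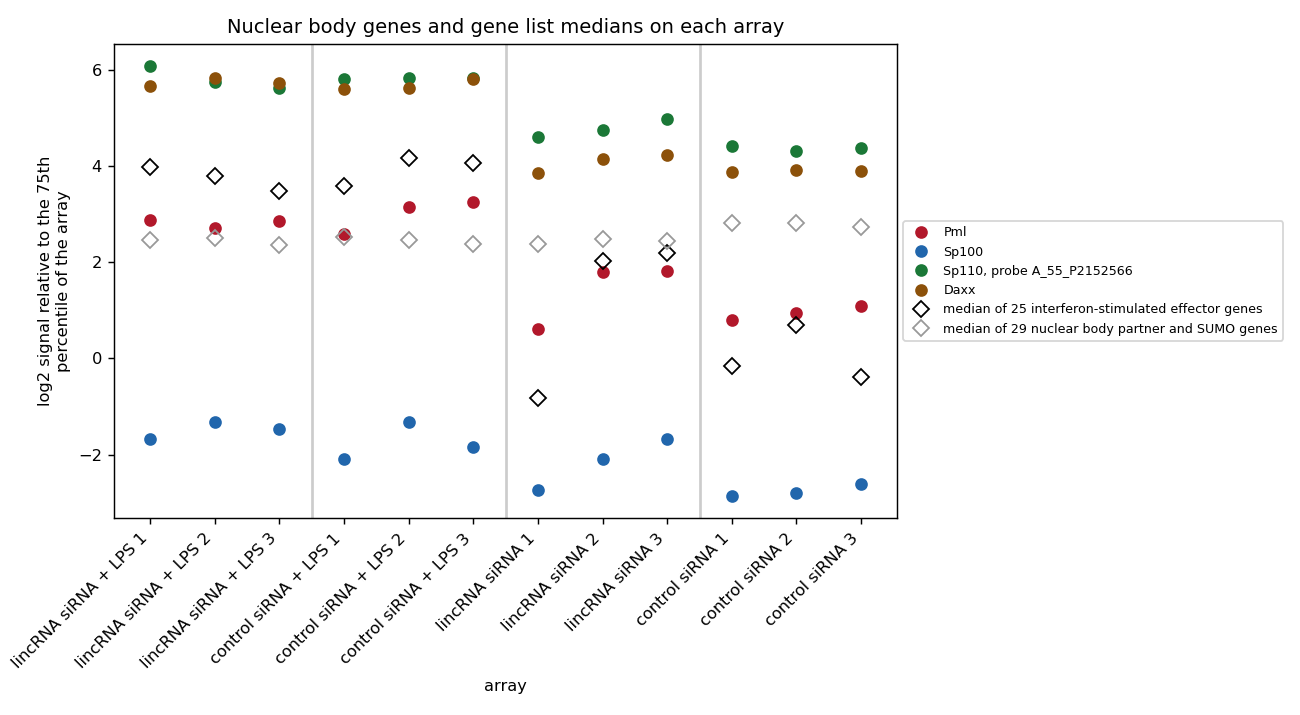
Level of Pml, Sp100, Sp110 (probe A_55_P2152566) and Daxx and the medians of 2 gene lists on each of the 12 arrays, as log2 relative to the 75th percentile of the array. The effector median is -0.82 on array 1 of the lincRNA siRNA and 2.02 and 2.19 on arrays 2 and 3, and the partner and SUMO median stays between 2.36 and 2.82.

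Over the 12 arrays, the 9 probes without the repeat correlated with each other at Pearson's r of 0.73 to 0.99, and these arrays fall into an LPS and a no-LPS set, a split that all the probes share. The repeat probe correlated with the other 2 Sp110 probes at 0.13 and 0.29, and those 2 with each other at 0.95. The genes most like each member were named by the same measure, as a description with no test. For Pml they were Uba7 (0.996), Parp10 (0.991) and Helz2 (0.990). For Sp100 they were Crtam (0.964), B4galt5 (0.961) and Timp1 (0.956). For Sp140 they were Hdc (0.995), Ccl5 (0.994) and Trex1 (0.993), and for Daxx Cxcl10 and Il6 (0.995 each). For Sp110 by the repeat probe they were Irx4 (0.940), Zfp791 (0.935) and Spag7 (0.931), and by A_55_P2152566 they were Clec4e (0.987), Trim21 and Casp4 (0.985 each).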

How the data were processed

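Spot intensity values were deposited as scanner output of Agilent Feature Extraction 10.7.1.1, per the file headers, and the processed signal in them was already background-subtracted by that software. A value table of the same arrays was also deposited on a log2 scale; each column followed the log2 signal of its own array with a slope of 0.984 to 1.03 and had a median of 4.75. How it was normalized is not stated in the labels or headers, so it was used as an alternative only. The 59305 non-control spots per array came from 55681 probes, 104 to 258 outlier spots were left out, and 0 were saturated. The 3 arrays per group limit the precision.

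Spots of a probe were averaged and log2 values were set relative to the array's 75th percentile. A probe was kept where some group had it well above background on all 3 of its arrays, and the brightest probe stood for each gene. Accessions of 26582 probes matched the GRCm38.p6 gene table, and 2892 symbols were updated. limma 3.58.1 in R 4.3.3 fitted 1 mean per group to all 12 arrays (8 residual degrees of freedom), with Benjamini-Hochberg adjustment over 23913 features and a threshold of 0.05. The same fit over 33157 probes gave the values of other probes. The fit was tested on simulated data. Missing values after outlier removal (89 among kept probes) were left missing. A fold given as "at least" sets the brighter group's mean against, per array of the dim group, whichever was higher of its own signal there and the dimmest signal of any probe well above background.

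The members, gene lists, tests and alternatives were chosen with earlier results of these data known. Named were all members, the 3 symbols most correlated with each probe shown (for Daxx, 1 is not reported here), and of each list the 3 largest changes past the threshold in control-siRNA cells. After each group's mean was removed, same-numbered replicates of different groups correlated at -0.30 to 0.47 over 18 pairs, with 8 above 0.1. Differently numbered ones reached -0.47 and 0.47, so the numbers were not used as pairs. Alternatives were the background correction, normalization, filter, slide, samples in the fit, each array left out, and the probe. Python 3.11.15 with matplotlib 3.10.9 drew the figures.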

Additional observations from a re-analysis of the deposited data

How the results depend on the processing

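Directions of the 5 genes were kept in all 110 alternatives for LPS in lincRNA-siRNA cells and in 105 of 110 for LPS in control-siRNA cells. For the siRNA with LPS, without LPS and the interaction they were kept in 104 of 110, 103 of 110 and 97 of 105. The fit on the groups of a contrast alone does not apply to the interaction. Many of these alternatives could not change a gene's difference, so agreement there was fixed in advance and the counts overstate stability. They were the filters, the replicate block, the groups of the contrast alone, every probe as a feature, and arrays left out from outside the contrast. The number of genes past the threshold, by 1 probe per gene, was 0 on slide 2 alone in both LPS comparisons, where fewer arrays remain; by probe, Sp140 passed there. With arrays left out it was 2 to 3 in lincRNA-siRNA cells and 3 to 4 in control-siRNA cells, and with the replicate block it was 3 and 4 by limma, Pml and Sp100 being the additions; that block ended the calls of Pml A_66_P128997 (adjusted p = 0.0555) and Sp110 A_55_P2037235 (0.0542) in lincRNA-siRNA cells. All features past the threshold numbered 441 for LPS in lincRNA-siRNA cells, against 158 with slide as a block, 45 on slide 2 alone, 139 from the groups of the contrast alone and 244 to 470 with arrays left out. For LPS in control-siRNA cells 1228 became 715 with no filter on dim probes, 230 with slide as a block (83.9% of them higher, against 63.4%), 42 on slide 2 alone, 632 from the groups of the contrast alone and 534 to 3980 with arrays left out, the highest without control siRNA 3. Slide as a block lowered the median of all features by 0.10 there. For the siRNA with LPS 0 became 2 with slide as a block. Without LPS 0 became 5 with normexp, 1 with slide as a block and 0 to 2614 with arrays left out (2614 without control siRNA 3, 133 without lincRNA siRNA 1, 8 without lincRNA siRNA 3), and the interaction count was 0 to 358 (358 without control siRNA 3, 3 without lincRNA siRNA 1). Small differences changed sign, and the cause was not tested. With quantile normalization and the authors' table these were Sp110 with LPS in control-siRNA cells (-0.12 in both), Daxx between siRNAs with LPS (-0.0121 and -0.0114) and Sp110 without LPS (-0.0558 and -0.0566). With slide as a block and on slide 2 alone they were Sp110 with LPS in control-siRNA cells (-0.0575), Daxx (-0.0253) and Sp140 (0.0589) between siRNAs with LPS, Sp140 without LPS (-0.00164) and the Sp140 interaction (0.0606). With normexp Sp140 without LPS was -0.0865. With arrays left out, Sp110 with LPS in control-siRNA cells was -0.05002 to 0.14, Sp140 without LPS -0.0459 to 0.0704 and the Sp110 interaction -0.0887 to 0.10. 2 probe choices were added after seeing the data: with the other Sp110 probes the siRNA difference with LPS was -0.15 and -0.00989 and the interaction -0.47 and -0.42.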
